A study of Mus musculus with 6 samples.

Results

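Genes of G2 and mitosis were followed in mouse long-term haematopoietic stem cells (LT-HSCs), the self-renewing cells from which all blood lineages descend, in libraries labelled Zcchc8 KO and wild type (WT). The set is a named list of 32 gene symbols, listed by function with no cut on a measured value, though earlier results of these data were known. All 32 were present among the 14986 genes of the expression table. They fall into cyclins and entry kinases, chromosome structure, centromere and kinetochore, the spindle checkpoint, partners of the anaphase-promoting complex, the chromosomal passenger complex, spindle motors and microtubule binders, and the machinery of cytokinesis.

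There were 3 Zcchc8 KO and 3 WT libraries, each from 1500 LT-HSCs sorted from crushed leg and hip bones after lineage depletion, with polyadenylated RNA amplified as cDNA before sequencing. The sources used here do not give the allele, any Cre driver, the strain, the age of the animals or the sort gate. They also do not say whether replicates were separate animals, and the p-values therefore reflect variation among these libraries, part of which may be technical. ZCCHC8 belongs to a nuclear complex that hands short-lived RNAs to the exosome for decay.

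A dividing cell builds its mitotic machinery late: cyclins A and B activate the kinase CDK1, condensin and topoisomerase compact and untangle the chromosomes, the spindle checkpoint holds anaphase back until every kinetochore is attached, and the anaphase-promoting complex then destroys cyclin B and securin. The mRNAs of these proteins are made mostly in G2 and M, so their summed level in a population is a common readout of how many cells are cycling. LT-HSCs are known for resting outside the cycle most of the time. In resting cells many of these genes are held down by the DREAM repressor complex, which binds a promoter element called the CHR (cell cycle genes homology region), often near CCAAT boxes bound by the factor NF-Y.

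The promoters of the 4 best-expressed members with an entry in the RefSeq promoter table (GRCm38.p6) are shown to give the CHR and CCAAT elements in their context, and 1 window that lacks them. Each window runs from 250 bases before to 50 bases after the annotated start, 5′ to 3′ on the gene's strand, and capitals mark matches to the CHR letters TTTGAA or to CCAAT on either strand. Ccnb2 lies at chr9:70421505-70421804 (minus strand), Ube2c at chr2:164769679-164769978 (plus strand), Cdc20 at chr4:118437294-118437593 (minus strand) and Birc5 at chr11:117848987-117849286 (plus strand).
Ccnb2: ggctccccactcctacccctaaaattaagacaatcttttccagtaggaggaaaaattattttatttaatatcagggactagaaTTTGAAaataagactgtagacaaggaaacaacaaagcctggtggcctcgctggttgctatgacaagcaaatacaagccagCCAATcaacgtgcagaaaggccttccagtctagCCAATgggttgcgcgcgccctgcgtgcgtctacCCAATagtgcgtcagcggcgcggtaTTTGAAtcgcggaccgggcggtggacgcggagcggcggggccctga
Ube2c: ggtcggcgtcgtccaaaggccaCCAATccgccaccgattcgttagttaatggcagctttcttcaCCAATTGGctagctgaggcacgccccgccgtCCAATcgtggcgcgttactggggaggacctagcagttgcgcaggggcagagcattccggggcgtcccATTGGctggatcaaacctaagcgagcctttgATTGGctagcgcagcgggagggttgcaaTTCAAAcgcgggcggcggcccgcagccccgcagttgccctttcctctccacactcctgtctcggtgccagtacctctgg
Cdc20: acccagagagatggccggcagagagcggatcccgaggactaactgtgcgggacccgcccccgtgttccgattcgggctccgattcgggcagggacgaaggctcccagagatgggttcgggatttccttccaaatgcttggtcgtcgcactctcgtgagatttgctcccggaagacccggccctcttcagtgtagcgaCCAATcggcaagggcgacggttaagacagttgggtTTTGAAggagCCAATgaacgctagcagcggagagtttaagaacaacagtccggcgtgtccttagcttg
Birc5: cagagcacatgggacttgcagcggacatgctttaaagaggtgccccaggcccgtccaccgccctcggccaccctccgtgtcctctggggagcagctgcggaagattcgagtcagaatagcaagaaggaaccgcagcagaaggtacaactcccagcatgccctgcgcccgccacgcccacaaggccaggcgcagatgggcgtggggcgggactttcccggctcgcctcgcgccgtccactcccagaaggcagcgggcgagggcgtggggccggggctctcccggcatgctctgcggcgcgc
The Ccnb2 window held 2 CHR matches and 3 CCAAT boxes, the Ube2c window 1 and 6, and the Cdc20 window 1 and 2, while the Birc5 window held neither. At 1 place in the Ube2c window CCAAT overlaps its reverse complement, and both are counted. The 2 motifs share no letters in any of the 4 windows.

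Of the 32 members 27 had an entry, and 20 of them (74.1%) held a CHR match, against 1059 of the 8535 tested genes with an entry (12.4%). A CCAAT box stood in 22 of the 27 (81.5%), against 40.2% of all these genes, and both motifs in 19 (70.4%), against 5.39%. A CHR match within 50 bases of the start was present in 19 members (70.4%) and in 3.12% of all. Members without any match to either motif were Mad2l1, Birc5, Nusap1 and Tacc3. These matches describe the letters of the windows and are not measured binding. The median log2 change in KO against WT was 0.15 for the 20 members with a CHR match and 0.073 for the 7 without, a description with no test. Ccna2, Smc4, Aurkb, Kif20a and Tpx2 had no entry.

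**Figure D1:**
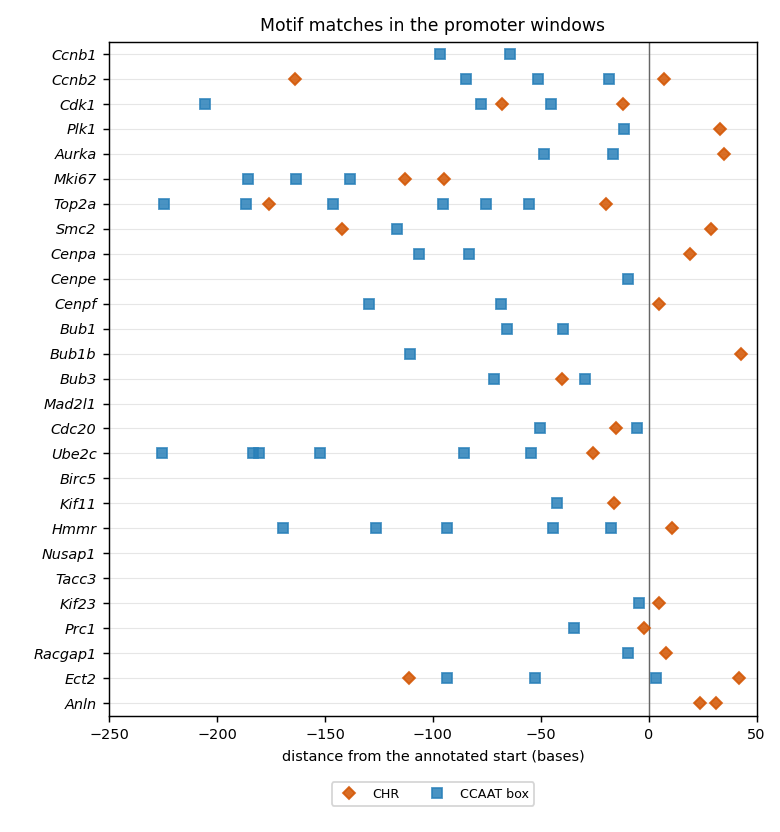
Positions of CHR (diamonds) and CCAAT (squares) matches on either strand in the promoter windows of the 27 members with an entry, by distance in bases from the annotated start (vertical line). CHR matches gather near the start, within 50 bases of it in 19 members, and 4 members show no match.

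FPKM is fragments per kilobase of exon, scaled to the size of the library, so a comparison between different genes depends on the exon lengths used. All 32 members were above the expression filter of a mean of 1 FPKM, so none was left out of the test. Their mean levels ran from 2.46 FPKM for Cenpe to 98.5 FPKM for Ccnb2, with a median of 17.0 FPKM against 7.85 FPKM over the 11837 tested genes. The reads behind a member's value in 1 library ran from 100 to 5975. Summed over the 32, the level was 714.0, 702.9 and 702.9 FPKM in KO libraries 1 to 3, against 654.3, 661.6 and 663.5 FPKM in WT libraries 1 to 3. The sums did not overlap, and KO averaged 706.6 ± 6.45 FPKM and WT 659.8 ± 4.86 FPKM (SD, n = 3 each), a ratio of 1.07. The FPKM of all genes in the table also summed higher in KO, at 596945 to 610820 against 587317 to 594153 in WT. As a share of all FPKM in the table the members held 0.116% to 0.118% in KO and 0.110% to 0.113% in WT. A sum is led by its most abundant genes, and in bulk samples more cells of a kind and more RNA per cell cannot be told apart.

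In the comparison of KO with WT libraries no G2 or mitosis gene passed the test. With limma on log2(FPKM + 1) and an adjusted p under 0.05, 0 of 32 members were called, where 0.228% of all tested genes were (27 of 11837, 0.177% higher and 0.0507% lower), and limma-voom on recovered reads also called 0. At an unadjusted p under 0.05 there was 1 member, Anln, higher in KO, or 3.12% of the set. That rule took 9.2% of all tested genes, of which 4.87% were higher in KO and 4.33% lower. All KO libraries stood above all WT libraries for 3 members (9.38%), against 8.24% of all tested genes, and below them for 1 (3.12%), against 6.99%. By value 21 of the 32 (65.6%) were higher in KO, against 50.2% of all tested genes, and the median log2 change was 0.11, with 0.0021 over all tested genes. That share depends on level. With a mean of at least 10 FPKM it was 15 of 22 members (68.2%), against 55.1% of all tested genes at that level. Under 10 FPKM it was 6 of 10 (60%), against 46.5%. The changes ran from -0.44 for Kif20a to 0.84 for Anln. By role, 5 of 6 cyclins and entry kinases were higher in KO by value (median log2 change 0.16), as were 3 of 3 centromere genes (0.18), 4 of 6 spindle motors and binders (0.18) and 3 of 5 cytokinesis genes (0.23). The count was 3 of 4 for the spindle checkpoint (0.084), 2 of 4 for chromosome structure (0.020), 1 of 2 for the passenger complex (0.022) and 0 of 2 for partners of the anaphase-promoting complex (-0.16).

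How large a change could have been missed on the log2(FPKM + 1) scale is given by the 95% interval of each log2 change. That scale understates changes of low genes, so a bound of 1 is not the same fold in FPKM at every level. For 21 of 32 members (65.6%) the whole interval lay between -1 and 1, and the share over all tested genes was 53.7%. Among the 22 members with a mean of at least 10 FPKM this held for 19 (86.4%), against 82.4% of all tested genes at that level. Among the 10 lower ones it held for 2 (20.0%), against 31.7% of all tested genes under 10 FPKM. For the other 11, among them Cenpe, Cenpf, Hmmr and Kif11, log2 changes beyond 1 or -1 lay within the interval.

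**Figure D2:**
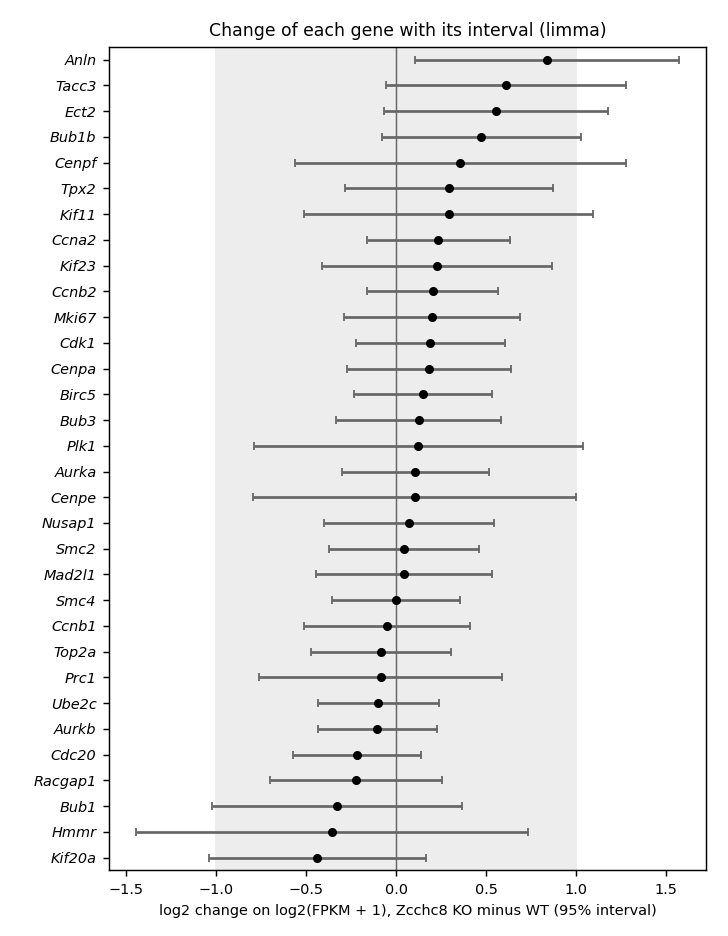
Log2 change on the log2(FPKM + 1) scale, Zcchc8 KO minus WT, for each of the 32 genes in order of size, with 95% intervals from limma; the grey band spans -1 to 1. The interval of Anln alone excludes 0 before adjustment, and 21 of the 32 intervals lie inside the band.

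**Figure D3:**
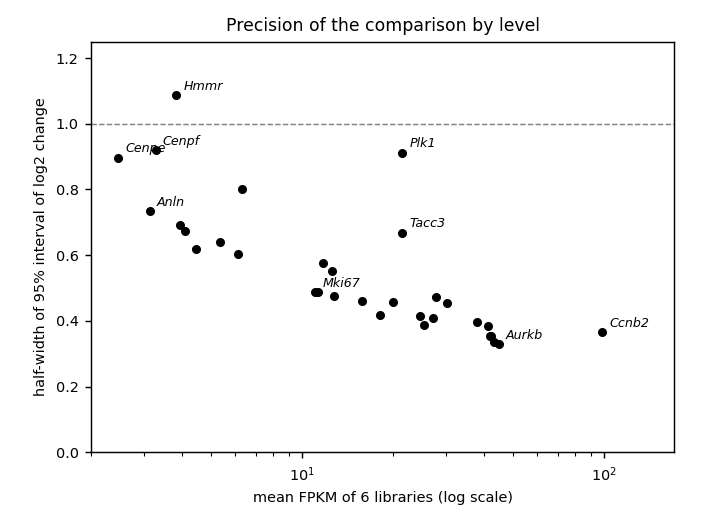
Margin of the 95% interval of the log2 change against the mean FPKM over 6 libraries (log axis), 1 point per gene; the dashed line marks a margin of 1. The margin is narrowest for Aurkb and widest for Hmmr, while Plk1 and Tacc3 stand above other genes of their level.

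Cyclins and entry kinases held the most abundant member of the set, and none passed the test. Ccnb2, a B-type cyclin that activates CDK1 (chromosome 9, 70407692 to 70421547, minus strand, GRCm38), was the most abundant member, with 99.97, 90.7 and 125.8 FPKM in KO libraries and 98.8, 99.5 and 76.0 FPKM in WT libraries. KO library 3 was the highest and WT library 3 the lowest, and the other 4 libraries lay together. Its log2 change was 0.20 ± 0.16 (SE), with an interval from -0.16 to 0.57 and an adjusted p of 0.745. The other B-type cyclin, Ccnb1, was lower at 13.4, 15.8 and 17.3 FPKM in KO and 18.4, 15.5 and 14.3 FPKM in WT, with groups that overlap throughout. In FPKM, Ccnb2 exceeded Ccnb1 by 5.74 to 7.47 times in KO libraries and by 5.31 to 6.41 times in WT libraries. Part of that comes from the exon lengths that FPKM divides by, 1531 bases for Ccnb2 and 4217 bases for Ccnb1. The reads were 3935 and 1451 in KO library 1, and 2732 and 1404 in WT library 1. Ccna2, the cyclin of S phase and G2, measured 47.9, 42.4 and 32.9 FPKM in KO and 36.9, 34.2 and 32.2 FPKM in WT. KO libraries 1 and 2 stood above every WT library and KO library 3 did not, for a log2 change of 0.23 ± 0.18 (adjusted p = 0.729). Cdk1, the kinase that these cyclins switch on, was held within 25.5 to 26.6 FPKM in KO and spread over 18.7 to 26.4 FPKM in WT.

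Plk1, the polo kinase of mitotic entry and centrosome maturation, had the widest relative spread among KO libraries of the 22 members with a mean of at least 10 FPKM. It stood at 38.5, 21.6 and 10.5 FPKM in KO libraries, against 20.2, 14.6 and 23.0 FPKM in WT libraries, so that KO held both the highest and the lowest library. These values rest on 2176, 900 and 481 reads in KO and 804, 586 and 956 in WT, and the spread among KO libraries was 59.9% of their mean where counting error would give 2.9%. Its log2 change of 0.12 turned to -0.31 without KO library 1. Aurka, the kinase of spindle poles, stood at 24.4, 26.5 and 33.7 FPKM in KO and 27.3, 23.9 and 26.5 FPKM in WT, with KO library 3 above the other 5 libraries (log2 change 0.10 ± 0.18, adjusted p = 0.902).

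None of the 4 genes of chromosome structure and proliferation passed, and all 4 intervals lay inside -1 to 1. Mki67, the coat protein of mitotic chromosomes that pathologists stain as Ki-67, measured 12.3, 10.9 and 12.3 FPKM in KO and 8.76, 10.7 and 11.3 FPKM in WT. The groups overlap, with WT library 1 the lowest. The log2 change was 0.20 ± 0.22, and its interval, from -0.29 to 0.69, leaves room for a level from 0.818 to 1.61 times that of WT on this scale. Top2a, the topoisomerase that untangles sister chromatids, stood at 25.8, 26.7 and 21.04 FPKM in KO and 25.1, 27.4 and 25.3 FPKM in WT (log2 change -0.08 ± 0.17, adjusted p = 0.921). Smc4, a core subunit of condensin, had 41.7, 37.1 and 48.2 FPKM in KO libraries and 39.9, 46.5 and 40.2 FPKM in WT libraries, and its partner Smc2 16.4 to 20.3 FPKM in KO and 16.9 to 19.3 FPKM in WT. For Smc4 the adjusted p was 0.999, and for Smc2 it was 0.971.

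**Figure D4:**
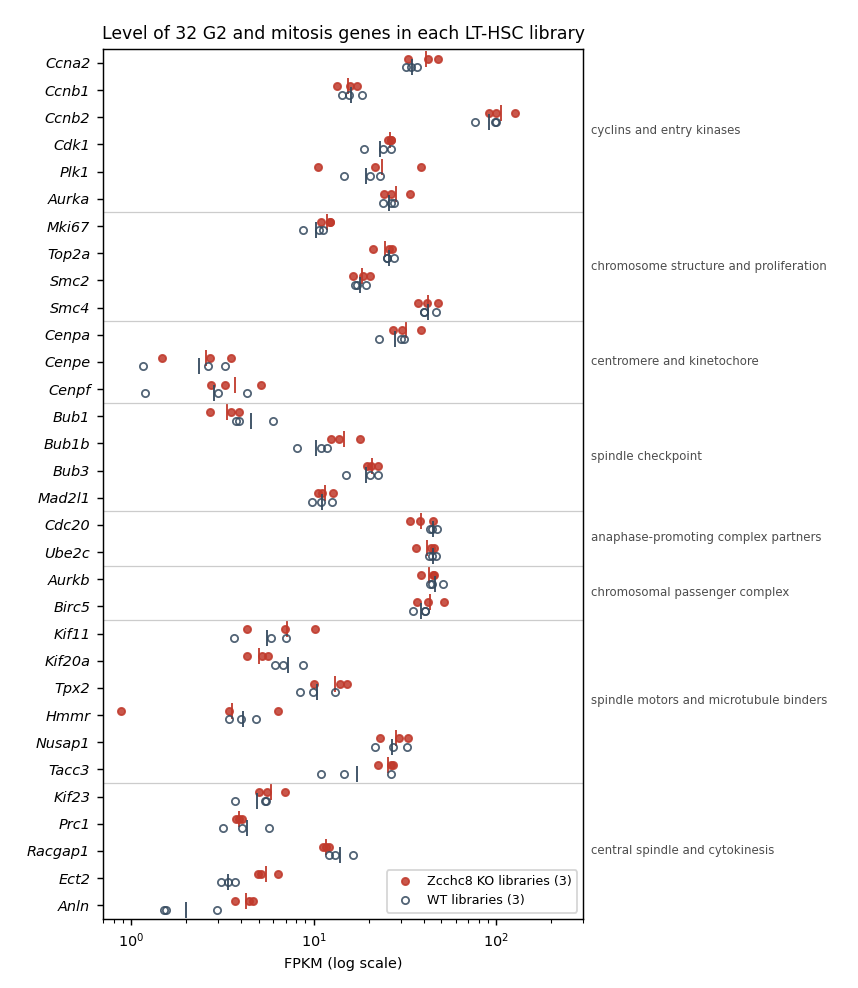
FPKM (log axis) of each of the 32 genes in the 3 Zcchc8 KO libraries (filled) and the 3 WT libraries (open), with a tick at each group's mean, ordered by role. Ccnb2 stands above all others in every library, and the groups are apart for Bub1b, Ect2, Anln and Kif20a.

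Among centromere and kinetochore genes the levels differed more between genes than between groups. Cenpa, the histone H3 variant that marks the centromere, measured 30.3, 38.8 and 27.0 FPKM in KO and 30.2, 22.8 and 31.2 FPKM in WT, with KO library 2 high and WT library 2 low. Cenpe, a kinetochore motor, was at 1.48 to 3.51 FPKM in KO and 1.15 to 3.26 FPKM in WT, and Cenpf, a large protein of the outer kinetochore, at 2.73 to 5.13 FPKM in KO and 1.19 to 4.31 FPKM in WT. WT library 3 was the lowest for both. Without it the log2 change of Cenpe, 0.10 with all libraries, was -0.19, and that of Cenpf, 0.36 with all libraries, was -0.0014.

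The spindle checkpoint genes differed in sign by value, and none passed. Bub1b, encoding the checkpoint protein BUBR1 (chromosome 2, 118598211 to 118641591, plus strand), stood at 13.7, 18.02 and 12.4 FPKM in KO libraries and 8.06, 11.9 and 11.0 FPKM in WT libraries. Every KO library was above every WT library, by a small gap between KO library 3 and WT library 2. The log2 change was 0.47 ± 0.24, with an unadjusted p of 0.0839 and an adjusted p of 0.594. Bub1, the kinase related to it, was at 2.69, 3.88 and 3.51 FPKM in KO and 3.74, 3.88 and 5.95 FPKM in WT, with WT library 3 high (log2 change -0.33 ± 0.31, adjusted p = 0.79). The ratio of Bub1b to Bub1 was 3.54 to 5.08 in KO libraries and 1.85 to 3.06 in WT libraries. This ratio was looked at after the values were seen and carries no test. It comes from a larger set of member pairs for which ratios were taken. Of these, Bub3 to Bub1 and Racgap1 to Kif23 were also apart. Both ratios to Bub1 share its values, and how often ratios of other gene pairs lie apart was not measured. The groups overlapped for Ccnb2 to Ccnb1, Ccna2 to Cdk1, Aurkb to Birc5, Cdc20 to Ube2c, Smc4 to Smc2 and Aurka to Tpx2. Bub3, the shared partner of both, measured 19.6 to 22.4 FPKM in KO and 15.1 to 22.4 FPKM in WT, and Mad2l1, which inhibits CDC20 at unattached kinetochores, 10.5 to 12.7 FPKM in KO and 9.83 to 12.5 FPKM in WT.

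Both partners of the anaphase-promoting complex were lower in KO by value without passing. Cdc20, the activator that brings substrates to the complex, stood at 45.1, 38.1 and 33.4 FPKM in KO libraries and 43.2, 44.5 and 47.5 FPKM in WT libraries. KO libraries 2 and 3 lay below every WT library and KO library 1 did not, for a log2 change of -0.22 ± 0.16 with an interval from -0.57 to 0.14 (adjusted p = 0.717). Ube2c, its ubiquitin-conjugating enzyme, measured 45.7, 36.1 and 43.7 FPKM in KO and 42.8, 44.6 and 46.7 FPKM in WT. Only KO library 2 was apart, and the log2 change was -0.10 ± 0.15 (adjusted p = 0.885).

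The chromosomal passenger complex, which corrects faulty attachments and later directs cytokinesis, was measured through its kinase and its survivin subunit. Aurkb, the kinase, stood at 38.6, 45.3 and 45.1 FPKM in KO and 44.6, 50.9 and 43.4 FPKM in WT (log2 change -0.10 ± 0.15, adjusted p = 0.873). Birc5, survivin, stood at 42.0, 52.0 and 36.7 FPKM in KO and 40.8, 35.1 and 40.8 FPKM in WT (log2 change 0.15 ± 0.17, adjusted p = 0.835). The groups overlap for both. The other subunits, Incenp and Cdca8, averaged 21.6 ± 3.57 and 26.1 ± 4.39 FPKM in KO, against 23.4 ± 6.45 and 21.6 ± 3.46 FPKM in WT (SD, n = 3 each), and did not pass.

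Spindle motors and microtubule binders included the lowest log2 change of the set and its second highest. Kif20a, a kinesin of the late spindle (chromosome 18, 34624613 to 34633277, plus strand), measured 4.29, 5.18 and 5.63 FPKM in KO libraries and 6.10, 8.76 and 6.78 FPKM in WT libraries. Every KO library was below every WT library, and the log2 change of -0.44 ± 0.27 had an unadjusted p of 0.136 and an adjusted p of 0.662. Its exons overlap those of Cdc23 on the opposite strand. Tacc3, which stabilises spindle microtubules with clathrin and ch-TOG (chromosome 5, 33658128 to 33678995, plus strand), had 22.6, 27.1 and 26.4 FPKM in KO and 14.7, 10.9 and 26.5 FPKM in WT. WT libraries 1 and 2 were low and WT library 3 stood among the KO libraries, for a log2 change of 0.61 ± 0.29 (unadjusted p = 0.0691, adjusted p = 0.578). Without WT library 3 the log2 change was 0.95, with an unadjusted p of 0.00335 and an adjusted p of 0.341, the smallest of any member under any setting tried.

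Hmmr, a microtubule-binding protein of spindle assembly, had the widest relative spread of all members, in KO. It measured 3.44, 6.37 and 0.884 FPKM in KO libraries, from 480, 656 and 100 reads, and 4.01, 3.41 and 4.84 FPKM in WT libraries. KO held both the highest and the lowest value, and the log2 change of -0.36 ± 0.48 was 0.18 without KO library 3. Kif11, the motor that pushes spindle poles apart, spread over 4.32 to 10.1 FPKM in KO and 3.66 to 7.03 FPKM in WT. Tpx2, the activator of Aurora A on the spindle, measured 10.05 to 15.1 FPKM in KO and 8.41 to 13.1 FPKM in WT, and Nusap1, a microtubule bundler, 23.0 to 32.7 FPKM in KO and 21.7 to 32.2 FPKM in WT. None of these 4 passed, with adjusted p from 0.766 to 0.951.

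**Figure D5:**
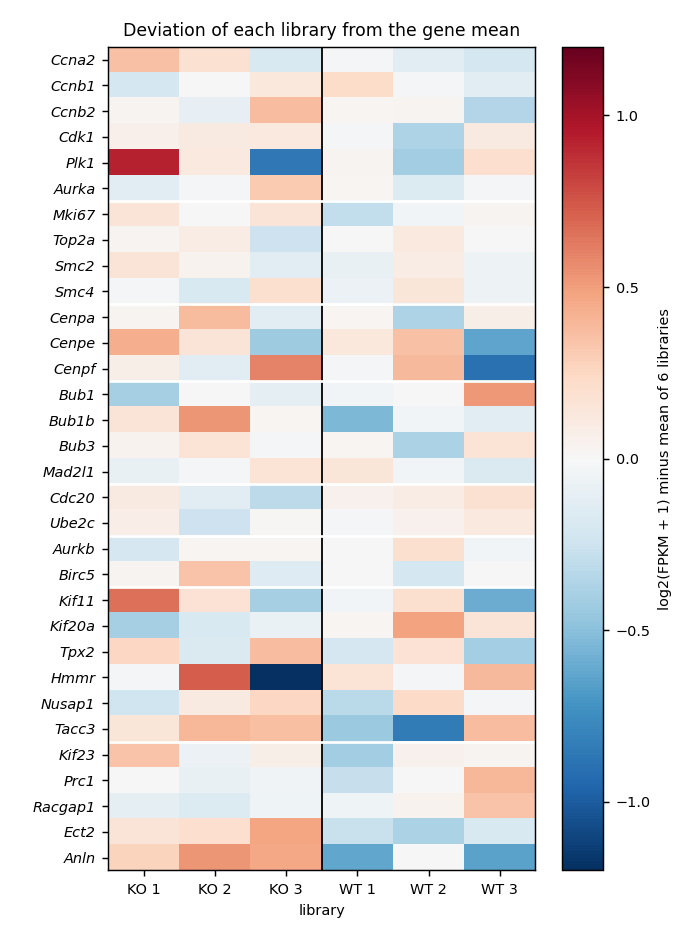
Deviation of log2(FPKM + 1) in each library from the gene's mean over 6 libraries, with Zcchc8 KO libraries on the left of the line and WT libraries on the right, in the order of roles. No library is red or blue down the whole set; the strongest single cells are Hmmr and Plk1 in KO library 3, Plk1 in KO library 1, and Cenpf and Tacc3 in single WT libraries.

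The cytokinesis genes held the 1 member with an unadjusted p under 0.05. Anln, anillin, the scaffold of the contractile ring (chromosome 9, 22332012 to 22389188, minus strand), stood at 3.71, 4.65 and 4.39 FPKM in KO libraries, against 1.55, 2.94 and 1.51 FPKM in WT libraries, from 800 to 864 reads in KO and 253 to 488 reads in WT. Every KO library was above every WT library. The mean was 2.13 times that of WT (4.25 ± 0.489 FPKM in KO and 2.0 ± 0.817 FPKM in WT, SD, n = 3 each), and the log2 change of 0.84 ± 0.32 had an interval from 0.10 to 1.57, an unadjusted p of 0.0297 and an adjusted p of 0.484. Ect2, the exchange factor that activates RhoA at the cleavage plane (chromosome 3, 27097222 to 27153878, minus strand), was also apart, with 4.93, 5.12 and 6.36 FPKM in KO and 3.40, 3.09 and 3.68 FPKM in WT. Its log2 change was 0.55 ± 0.27, with an unadjusted p of 0.0738 and an adjusted p of 0.588.

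The partners of Anln and Ect2 in cytokinesis did not share that order. Racgap1 and Kif23 form centralspindlin, the complex that recruits ECT2. Racgap1 measured 11.6, 11.2 and 12.2 FPKM in KO and 12.1, 13.1 and 16.3 FPKM in WT, a log2 change of -0.22 ± 0.21 (adjusted p = 0.792), with KO library 3 just above WT library 1. Kif23 measured 6.94, 4.98 and 5.56 FPKM in KO and 3.70, 5.48 and 5.39 FPKM in WT (log2 change 0.23 ± 0.28, adjusted p = 0.855). Racgap1 exceeded Kif23 by 1.68 to 2.24 times in KO libraries and by 2.39 to 3.28 times in WT libraries. This ratio is from the same set of pairs and was also looked at after the values were seen. Prc1, which bundles the antiparallel microtubules of the central spindle, was close to even, with 3.76 to 4.04 FPKM in KO and 3.17 to 5.65 FPKM in WT.

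The library with the highest value was KO library 1 for 7 members, KO library 2 for 6 and KO library 3 for 9, and WT library 1 for 1, WT library 2 for 3 and WT library 3 for 6. Over all tested genes each library was the highest for 15.7% to 17.5%. The spread among replicates, as a share of the mean, had a median of 14.6% in KO and 16.7% in WT, while counting error alone would give 2.43% in KO and 2.68% in WT. It exceeded counting error for 31 of 32 members in KO, all but Prc1, and for 32 of 32 in WT. Spread fell with level: the 10 members under 10 FPKM had a median of 17.7% in KO and 28.3% in WT, and the 22 others 12.9% in KO and 13.01% in WT.

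The annotated exons of 8 members overlap a gene on the opposite strand, and those of Top2a a small RNA on its own strand. Strand use is not stated, and without it reads of such pairs cannot be told apart, so these values are uncertain. Among them are Ccna2 with Exosc9, Cdc20 with Elovl1, Nusap1 with Oip5, Tacc3 with Tmem129 and Prc1 with Rccd1.

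Other genes of mitosis were taken from lists by function, and none passed. Of 141 tested genes in 5 lists 0 were called by limma or by limma-voom, where limma called 0.228% of all tested genes. At an unadjusted p under 0.05, 6 were higher (4.26%, against 4.87% of all tested genes) and 3 lower (2.13%, against 4.33%). The groups did not overlap for 19 of the 141 (13.5%, against 15.2% of all tested genes), and the median log2 change was 0.023. In the list of 29 tested entry kinases, phosphatases and transcription factors 4 were higher (13.8%) and 1 lower (3.45%) at that level. Cks2, a small subunit of cyclin-dependent kinases, measured 154.4, 187.2 and 186.9 FPKM in KO and 124.7, 116.0 and 111.5 FPKM in WT. Every KO library was above every WT library, with a log2 change of 0.58 ± 0.11, an unadjusted p of 0.000658 and an adjusted p of 0.129. Its relative Cks1b averaged 168.4 ± 30.1 FPKM in KO and 140.3 ± 17.1 FPKM in WT (SD, n = 3 each), with overlapping groups.

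Wee1, the kinase that holds CDK1 inactive, measured 26.9, 36.5 and 27.7 FPKM in KO and 21.04, 20.8 and 16.6 FPKM in WT (log2 change 0.61 ± 0.19, adjusted p = 0.367). E2f4, the E2F of the DREAM complex, stood at 30.03, 37.7 and 34.7 FPKM in KO and 25.0, 22.3 and 23.7 FPKM in WT (log2 change 0.50 ± 0.16, adjusted p = 0.377). Ppp2r2a, a phosphatase subunit that opposes CDK1, had 18.4, 16.5 and 14.2 FPKM in KO and 21.5, 24.4 and 26.3 FPKM in WT (log2 change -0.53 ± 0.19, adjusted p = 0.42). In each of the 3 the groups were apart. Over the list this held for 7 of 29 tested genes (24.1%), against 15.2% of all tested genes. Of the 7, 6 were higher in KO (20.7%, against 8.24%) and 1 lower (3.45%, against 6.99%). E2f2, an activating E2F, averaged 4.45 ± 2.41 FPKM in KO and 1.39 ± 1.19 FPKM in WT, where WT library 1 held 2 reads. Ppp1ca, a catalytic phosphatase subunit and with Cks1b the most abundant of the list, averaged 155 ± 4.60 FPKM in KO and 141 ± 18.3 FPKM in WT (SD, n = 3 each), with overlapping groups.

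In the remaining lists the genes past an unadjusted p of 0.05 were few. Fbxo5, which inhibits the anaphase-promoting complex, measured 44.9, 42.1 and 45.7 FPKM in KO and 32.1, 38.5 and 30.6 FPKM in WT (log2 change 0.39 ± 0.15, adjusted p = 0.493). Cenpq, of the inner kinetochore, averaged 15.2 ± 2.10 FPKM in KO and 21.4 ± 1.33 FPKM in WT, and Ncaph, of condensin I, 6.89 ± 0.748 FPKM in KO and 10.3 ± 0.831 FPKM in WT. Fam83d, a spindle protein, averaged 9.49 ± 4.10 FPKM in KO and 3.77 ± 2.25 FPKM in WT (SD, n = 3 each). Its groups overlapped, with KO library 1 at 4.84 FPKM and WT library 2 at 5.08 FPKM. For Fbxo5, Cenpq, Ncaph and Fam83d the adjusted p ran from 0.493 to 0.534. The 2 most abundant genes of each of these lists, Cenpx and Spc24, Anapc5 and Fbxo5, Wapl and Cdca5, and Stmn1 and Pbk, did not pass, with overlapping groups except for Fbxo5. Stmn1, a microtubule destabiliser, averaged 205.3 ± 12.4 FPKM in KO and 202.5 ± 19.8 FPKM in WT.

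The earlier steps of the cycle were set beside the mitotic genes as values, without a test between lists. Of 45 tested genes of DNA replication 0 were called by limma or by limma-voom, 30 (66.7%, against 50.2% of all tested genes) were higher in KO by value, and the median log2 change was 0.10. At an unadjusted p under 0.05, 3 were higher (6.67%, against 4.87% of all tested genes) and 2 lower (4.44%, against 4.33%), shares near those of all genes. The groups did not overlap for 12 (26.7%, against 15.2% of all tested genes). Of these, 8 were higher in KO (17.8%, against 8.24%) and 4 lower (8.89%, against 6.99%). Gins1 averaged 23.1 ± 6.15 FPKM in KO and 12.7 ± 2.18 FPKM in WT, while Gins3, a subunit of the same helicase complex, averaged 5.99 ± 1.89 FPKM in KO and 17.4 ± 2.96 FPKM in WT (adjusted p = 0.34 and 0.116). Rrm2, of ribonucleotide reductase, averaged 56.4 ± 3.57 FPKM in KO and 39.3 ± 3.83 FPKM in WT, Rpa2, of the single-strand binding protein, 62.9 ± 9.19 FPKM in KO and 48.1 ± 7.07 FPKM in WT, and Cdc45, of the replicative helicase, 5.24 ± 1.57 FPKM in KO and 9.09 ± 2.17 FPKM in WT (SD, n = 3 each).

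Among 15 tested G1 cyclins, kinases and inhibitors 0 were called by either model, where limma called 0.228% of all tested genes. The median log2 change was 0.0080. Ccne1, the cyclin of entry into S phase, measured 12.03, 8.50 and 8.17 FPKM in KO and 1.08, 2.32 and 5.24 FPKM in WT (unadjusted p = 0.00424, adjusted p = 0.248). Ccnd2, a G1 cyclin abundant in these cells, averaged 53.6 ± 7.44 FPKM in KO and 70.7 ± 4.39 FPKM in WT (SD, n = 3, adjusted p = 0.424). Both had groups that do not overlap, as did Cdk2, lower in KO, which makes 3 of 15 (20%) against 15.2% of all tested genes. No other gene of this list than Ccne1 and Ccnd2 had an unadjusted p under 0.05, or 13.3% against 9.2% of all tested genes.

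The libraries as a whole set the frame for these values. The reads behind the FPKM ran from 18963362 to 25709663 in KO and from 18059318 to 18909212 in WT, and KO library 1 was the deepest. Zcchc8 itself stood at 10.4, 5.54 and 5.92 FPKM in KO and 8.93, 5.24 and 5.16 FPKM in WT (exact two-sided permutation p = 0.5, where 0.1 is the smallest that 3 libraries against 3 allow), and a value summed over exons does not check for a deleted exon, so directions are those of the libraries labelled KO. All 20 markers of LT-HSCs were in the table, with sums of 594.4 to 631.1 FPKM in KO and 749.8 to 804.8 FPKM in WT. Of these markers 0 were called, where 0.228% of all tested genes were. At an unadjusted p under 0.05, 10 were lower, where 4.33% of all tested genes were. Of the 20, Hoxb5 was the only gene listed at 0 in a library, a KO one. Erythroid markers, 11 of 13 in the table, summed to 498.8 to 535.1 FPKM in KO and 161.8 to 196.2 FPKM in WT. Of the 10 tested, 4 were called higher, where 0.177% of all tested genes were. The 4 eosinophil markers of 7 that were in the table summed to 160.9 to 204.8 FPKM in KO and 0.116 to 1.016 FPKM in WT, where Prg2, Prg3, Epx and Ear6 were each listed at 0 in a library. Granulocyte markers summed to 3915 to 4340.0 FPKM in KO and 3064 to 3208 FPKM in WT, but their genes differed in direction. At an unadjusted p under 0.05, 5 of the 12 were higher, against 4.87% of all tested genes, and 2 lower, against 4.33%. The 2 lower ones were Mpo (log2 change -0.43) and Prtn3 (-0.35). Over 9 lists of other blood cells, the sums of all KO libraries were above those of all WT libraries for 8 and below them for 1, the B cell list, at 108.3 to 126.2 FPKM in KO and 816.9 to 927.7 FPKM in WT. That difference is Igkc alone, an immunoglobulin light chain with 0, 0 and 1.35 FPKM in KO and 773.6, 746.1 and 865.8 FPKM in WT. Without it the B cell list summed to 108.3 to 124.8 FPKM in KO and 61.9 to 77.5 FPKM in WT, and 5 of its genes were higher at an unadjusted p under 0.05. With the most abundant gene left out of each list, a choice made after seeing the data, the sums were higher in KO for 7 of the 9 and overlapped for 2, the T and NK cell and the megakaryocyte lists. The part of these cell-type differences in the values of the mitotic genes was not tested.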

How the data were processed

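Polyadenylated RNA of sorted mouse LT-HSCs was sequenced in 6 libraries, which their titles group and number as 3 Zcchc8 KO and 3 WT. Tools named in the submitters' processing notes are fastp, Bowtie2 and featureCounts, with the build mm10 and no versions. The authors deposited 1 table of FPKM for 14986 gene symbols, per the file headers. The sources used here do not state strand use or how multiply matching reads were counted, and Bowtie2 does not split reads over introns.

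Symbols were matched to GENCODE M21 (GRCm38, the assembly of mm10) for 14671 genes. FPKM times exon length came out as whole reads within 0.05 for 98.0% of values below 100 reads, which gave the reads behind each library. Repeated copies of amplified cDNA make such reads overstate independent molecules, and intervals for counting cover counting error only.

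Genes averaging 1 FPKM or more (11837) were compared on log2(FPKM + 1), which understates changes of low genes, with the moderated linear model of limma 3.58.1 in R 4.3.3, allowing the variance to follow the mean. Tests were two-sided, and p-values were adjusted by Benjamini-Hochberg over all of these genes, with 0.05 as the threshold. Every p without another name is from limma. The procedure was tested on simulated data. The 32 members, the other gene lists and the tests were chosen with earlier results of these data known. Values are given in every library for the 8 members of highest mean, those with an unadjusted p under 0.05, the 4 largest changes each way and, chosen after their values were seen, further members whose libraries lay far apart or that a comparison needed. Genes of other lists are named where their unadjusted p was under 0.05 or, for mitosis lists, where they ranked among the 2 of highest mean, with subunits of the passenger complex added after their values were seen. Motifs were searched in RefSeq promoter windows (GRCm38.p6), with the first listed window of each gene. Alternatives changed the pseudocount (0.1 and 0.5), the filter (none, and a mean of at least 5 FPKM), the scaling (TPM, median of ratios, quantile), the variance trend, the replicate block, the libraries used, and the model (limma-voom on recovered reads). Figures were drawn with matplotlib 3.10.9.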

Additional observations from a re-analysis of the deposited data

How the results depend on the processing

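Across 16 alternatives 0 of the 32 members, 0 of the other mitosis genes and 0 of the replication and G1 genes were called, and the smallest adjusted p of a member was 0.341. The number of members at an unadjusted p under 0.05 was 1, became 0 with a filter of a mean of at least 5 FPKM, which leaves Anln out, and 2 without the variance trend, and was 0 to 1 on leaving out single libraries. Calls over all genes, 27 as reported, were 8 without the variance trend, 8 with limma-voom and 11 with the replicate block, and 11 to 19 on leaving out single libraries. The members' median log2 change of 0.11 was 0.092 under TPM and 0.13 with limma-voom, and 0.061 to 0.158 on leaving out single libraries. The ratio of summed FPKM, 1.07, was 1.05 under TPM and 1.05 under quantile scaling, and 1.065 to 1.074 on leaving out single libraries. Same-numbered KO and WT libraries did not deviate together (r of 0.024, 0.0071 and 0.0037). These values show no pairing by number but cannot exclude one. The replicate block changed no call of a member.

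Signs reversed in 22 of 505 combinations of member and setting, over 14 members, in 21 of them on leaving out a library. Over the removals of single libraries the log2 change ran as follows: Ccnb1 from -0.13 to 0.045, Plk1 from -0.31 to 0.58, Aurka from -0.026 to 0.20, Top2a from -0.15 to 0.018, Smc2 from -0.026 to 0.12, Smc4 from -0.097 to 0.088, Cenpe from -0.19 to 0.34, Cenpf from -0.0014 to 0.64, Bub3 from -0.031 to 0.24, Mad2l1 from -0.037 to 0.12, Ube2c from -0.17 to 0.00057, Hmmr from -0.81 to 0.18, Nusap1 from -0.071 to 0.21 and Prc1 from -0.24 to 0.092. Smc4 also went to 0.0030 with limma-voom, against -0.0013 as reported. For Zcchc8 the log2 change, 0.15 as reported, spanned -0.11 to 0.37 on leaving out single libraries. The cause of these shifts was not tested. For the 10 members under 10 FPKM the median spread among libraries was 17.7% in KO and 28.3% in WT, against a counting error of 3.86% in KO and 4.55% in WT.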
